A study of Mus musculus with 6 samples.

Results

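Odorant signalling genes of mature olfactory neurons were followed in the nasomaxillary complex, the block of nose and upper jaw, of mouse embryos at E17.5. The 10 genes were chosen by symbol, and all 10 were found among the 24346 gene symbols measured. They are Omp, Gng13, Gnal, Cnga2, Cnga4, Stoml3, Ano2, Rtp1, Rtp2 and Trpc2. Messenger RNA was sequenced in 3 mutant libraries (genotype Wnt1-Cre:Pth1r f/f) and 3 control libraries (genotype Pth1r f/f). Both groups carry floxed Pth1r, which encodes the receptor shared by parathyroid hormone and its related protein, and neither was treated. Only mutants carry Wnt1-Cre, a transgene that recombines floxed DNA in neural crest cells, so receptor loss and the transgene itself cannot be told apart. Whether each library is a separate embryo is not stated, so every p-value reflects the spread among these libraries alone, which may be technical.

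Olfactory neurons line the roof of the nasal cavity and derive mainly from the olfactory placode, an ectodermal thickening of the head. On their cilia an odorant receptor activates a G protein that contains the alpha subunit encoded by Gnal. Adenylyl cyclase 3 then makes cyclic AMP, which opens a cation channel built from Cnga2, Cnga4 and Cngb1. The calcium that enters opens the chloride channel encoded by Ano2, which amplifies the current. Receptors reach the cilia with help from the transporting proteins encoded by Rtp1 and Rtp2. Trpc2 encodes the transduction channel of the vomeronasal organ, a separate sense organ of the nasal septum.

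No difference between mutant and control tissue passed the test for any of the 10 genes. All 10 passed the expression filter, a mean of at least 1 FPKM (fragments mapped per kilobase of transcript, relative to all mapped fragments of a library) over the 6 libraries. By limma, 0 of 10 had an adjusted p under 0.05, and 0 of 10 had an unadjusted p under 0.05. Among all 14766 genes tested, 39 (0.264%) passed the adjusted threshold and 1670 (11.3%) had an unadjusted p under 0.05. The mutant and control values overlapped for every one of the 10, while 17% of all tested genes had groups that did not overlap. Changes are given on the log2(FPKM + 1) scale, mutant minus control, which understates changes of genes at low FPKM. They ran from -0.04 for Gng13 to 0.18 for Cnga4, with 9 positive and 1 negative, and their median was 0.14 against -0.002 over all tested genes. The 95% intervals of the 10 changes lay between -0.26, the lower bound for Rtp1, and 0.49, the upper bound for Cnga4. A p that misses the threshold does not show that levels were equal, and these intervals give the sizes the data leave possible. In bulk tissue, fewer cells of a type and less RNA per cell cannot be told apart.

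**Figure D1:**
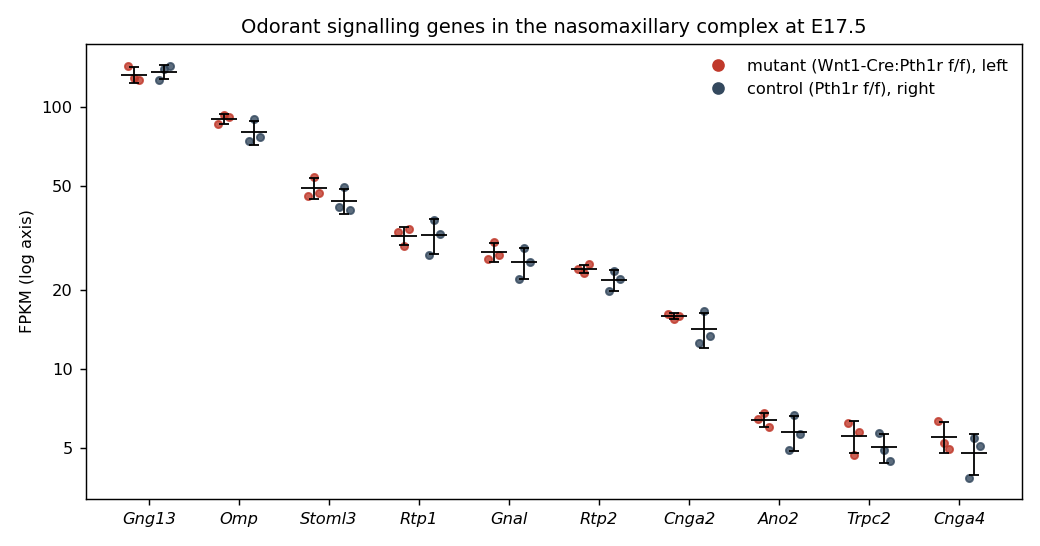
FPKM of the 10 genes on a log axis, ordered by mean level. Each point is a library, with mutants in red on the left and controls in dark blue on the right, and black marks show the mean ± SD of 3 libraries. The groups overlap for every gene, and levels run from a mean of 134 FPKM for Gng13 to 5.16 FPKM for Cnga4.

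Some facts of the series touch these values. The spacing of low FPKM values put depth at between 8500000 fragments in mutant replicate 3 and 14000000 in control replicate 2, as an estimate. At that depth the lowest library held about 110 fragments for Cnga4 and about 140 for Trpc2, and between 280 and 2600 for the other 8 genes. The targeted gene Pth1r measured 77.3, 78.4 and 69.7 FPKM in mutant libraries, against 75.2, 55.2 and 73.5 FPKM in control libraries (limma log2 change 0.15 ± 0.12 SE). The floxed part of Pth1r is not named in the labels, so this value is no check of genotype. Xist and Y-linked transcripts put 1 mutant library and all 3 control libraries as female. Mutant replicate 2 stood apart in muscle transcripts. The summed FPKM of 7 skeletal muscle genes was 495, 955 and 362 in mutant libraries, against 426, 248 and 378 in control libraries. All 7 changes were positive (median log2 change 0.68), and 0 passed the adjusted limma threshold. Of the 7, 3 had an unadjusted limma p under 0.05, against 11.3% of all tested genes. Groups did not overlap for 3, against 17% of all tested genes.

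The tissue label was checked against markers of the cells concerned. Omp, which defines mature olfactory neurons, lay above 96.4% of all genes in mean level, and Gng13 above 98% of them. Cbr2 and Cyp2a5, expressed in the supporting and gland cells of the olfactory epithelium, averaged 825 and 134 FPKM in mutant libraries and 773 and 127 FPKM in control libraries. Of the other 3 genes in that list, Cyp2g1 averaged 79.1 FPKM in mutant and 69.7 FPKM in control libraries, Ugt2a1 164 FPKM in mutant and 171 FPKM in control libraries, and Ermn 6.58 FPKM in mutant and 7.78 FPKM in control libraries. By limma 0 of the 5 passed the adjusted threshold. Of 8 transcripts of olfactory bulb and forebrain neurons, 5 were under 1 FPKM in all 6 libraries and 3 were not. Tbr1, Eomes, Slc17a7 and Gad1 were under 1 FPKM in all 6 libraries, and Th, the enzyme of bulb dopamine neurons, was listed at 0 in mutant replicate 3 and reached at most 0.451 FPKM, in control replicate 2. Gad2, an enzyme of inhibitory neurons, ran from 0.316 to 1.12 FPKM in mutant and from 0.855 to 1.52 FPKM in control libraries. Reln, a secreted protein also made outside the brain, ran from 1.96 to 3.14 FPKM in mutant and from 1.72 to 2.1 FPKM in control libraries. In the list of 8 bulb markers the summed level ran from 13.0 to 15.6 FPKM in mutant libraries and from 12.9 to 16.6 FPKM in control libraries, most of it from Cdhr1, which olfactory epithelium also expresses.

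Omp encodes olfactory marker protein, a small cytoplasmic protein abundant in mature olfactory neurons. The gene (chromosome 7, 98143359 to 98145502, minus strand, GRCm38) lies within Capn5 with no shared exonic base. Its values were 85.7, 93.2 and 91.3 FPKM in mutant libraries, against 73.8, 89.7 and 76.3 FPKM in control libraries. The lowest mutant value lay below the highest control value, that of control replicate 2, while the other 2 controls were lower than every mutant. The means were 90.0 ± 3.90 FPKM in mutant and 79.9 ± 8.55 FPKM in control (SD, n = 3 each), a log2 change of 0.17 ± 0.079 (SE) with a limma adjusted p of 0.467. That was the smallest adjusted p of the 10 genes.

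The G protein that couples odorant receptors to the cyclase has an alpha subunit from Gnal and a gamma subunit from Gng13. Gnal (chromosome 18, 67088216 to 67226792, plus strand) measured 26.2, 30.6 and 27.1 FPKM in mutant libraries, against 22.1, 28.9 and 25.5 FPKM in control libraries. The groups overlapped, and mutant replicate 2 was the highest of the 6. The limma log2 change was 0.13 ± 0.10 (SE), at an adjusted p of 0.687. Gng13 (chromosome 17, 25717171 to 25719406, plus strand) measured 143, 128 and 127 FPKM in mutant libraries, against 126, 139 and 143 FPKM in control libraries. The groups covered the same range, and Gng13 was the steadiest of the 10 genes, its highest library being 1.13 times its lowest. Its log2 change of -0.04 ± 0.07 (SE) had a limma adjusted p of 0.896 and was the negative one among the 10. The sign turned positive with library weights, with sex as a covariate and without control replicate 3. Gng13 shares 399 of its 773 exonic bases with Chtf18 on the opposite strand, and Gnal shares 852 of 11172 with Mppe1. The strand setting used in counting is not given, so reads of these overlapping genes may not be told apart. Chtf18 stood at 4.78 to 5.79 FPKM in mutant libraries and 5.61 to 6.74 FPKM in control libraries, far below Gng13.

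The transduction channel opened by cyclic AMP was represented by 2 of the 10 genes. Cnga2 (chromosome X, 71991849 to 72010218, plus strand), the subunit that can form a channel alone, measured 16.3, 15.5 and 16.0 FPKM in mutant libraries, against 12.6, 16.7 and 13.4 FPKM in control libraries. The mutants lay close together inside the range of the controls. The limma log2 change was 0.16 ± 0.098 (SE), at an adjusted p of 0.588. Cnga4 (chromosome 7, 105404568 to 105408742, plus strand), a modulatory subunit, measured 6.36, 5.24 and 4.98 FPKM in mutant libraries, against 3.84, 5.47 and 5.08 FPKM in control libraries. Its extremes were mutant replicate 1 and control replicate 1, and the other 4 libraries mixed. It had the widest spread of the 10, a coefficient of variation of 15.8% over the 6 libraries, and a log2 change of 0.18 ± 0.13 (SE) with a limma adjusted p of 0.672. Levels per length can be compared within a library. Cnga2 stood at 2.56 to 3.21 times Cnga4 in mutant libraries and at 2.63 to 3.28 times in control libraries. The third subunit gene, Cngb1, measured 3.08, 3.16 and 2.93 FPKM in mutant libraries, against 2.34, 3.57 and 3.15 FPKM in control libraries. Cnga4 stood at 2.06, 1.66 and 1.70 times Cngb1 in mutant libraries, against 1.64, 1.53 and 1.61 times in control libraries. These values did not overlap, by a narrow margin, unlike the other 15 of 16 ratios computed among neuron genes (exact permutation test, two-sided p = 0.1, 0.686 when adjusted over the 16).

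Ano2 and Stoml3 act downstream of or beside that channel. Ano2 (chromosome 6, 125690419 to 126040126, plus strand) encodes the calcium-activated chloride channel of olfactory cilia. It measured 6.45, 6.80 and 6.02 FPKM in mutant libraries, against 4.93, 6.66 and 5.67 FPKM in control libraries. Control replicate 2 lay among the mutants and the other controls below them, with control replicate 1 lowest. The limma log2 change was 0.14 ± 0.10 (SE), at an adjusted p of 0.666. Stoml3 (chromosome 3, 53488653 to 53508502, plus strand) encodes a stomatin-like membrane protein found in olfactory cilia. It measured 45.8, 54.0 and 46.9 FPKM in mutant libraries, against 41.5, 49.2 and 40.4 FPKM in control libraries. Control replicate 2 again lay among the mutants and the other controls below them, and the limma log2 change was 0.16 ± 0.093 (SE), at an adjusted p of 0.568.

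The receptor transporters Rtp1 and Rtp2 carry odorant receptors to the cell surface. Rtp1 (chromosome 16, 23429133 to 23433960, plus strand) measured 33.2, 29.3 and 34.1 FPKM in mutant libraries, against 27.3, 36.9 and 32.7 FPKM in control libraries. The mutant range lay inside the control range. The limma log2 change was 0.0024 ± 0.11 (SE), at an adjusted p of 0.998, and its sign turned negative without mutant replicate 1, mutant replicate 3 or control replicate 1. Rtp2 (chromosome 16, 23925548 to 23932394, minus strand) measured 24.0, 23.2 and 25.05 FPKM in mutant libraries, against 19.8, 23.6 and 22.0 FPKM in control libraries. The groups touched only through mutant replicate 2 and control replicate 2, and the limma log2 change was 0.14 ± 0.071 (SE), at an adjusted p of 0.513. Rtp1 exceeded Rtp2 in every library, by 1.26 to 1.38 times in mutant and 1.38 to 1.56 times in control libraries.

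Trpc2 (chromosome 7, 102083116 to 102096396, plus strand) measured 6.21, 4.71 and 5.73 FPKM in mutant libraries, against 5.72, 4.90 and 4.48 FPKM in control libraries. Values of both groups mixed throughout, and the limma log2 change was 0.12 ± 0.12 (SE), at an adjusted p of 0.767. Its value is uncertain, because 2803 of its 2874 exonic bases are shared with Xntrpc, a readthrough gene on the same strand. Xntrpc was listed at 0 in mutant replicate 1 and at up to 1.10 FPKM elsewhere. The sum of the 2 genes was 6.21, 5.14 and 6.18 FPKM in mutant libraries, against 5.98, 6.0 and 4.76 FPKM in control libraries, and the groups overlapped as well.

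**Figure D2:**
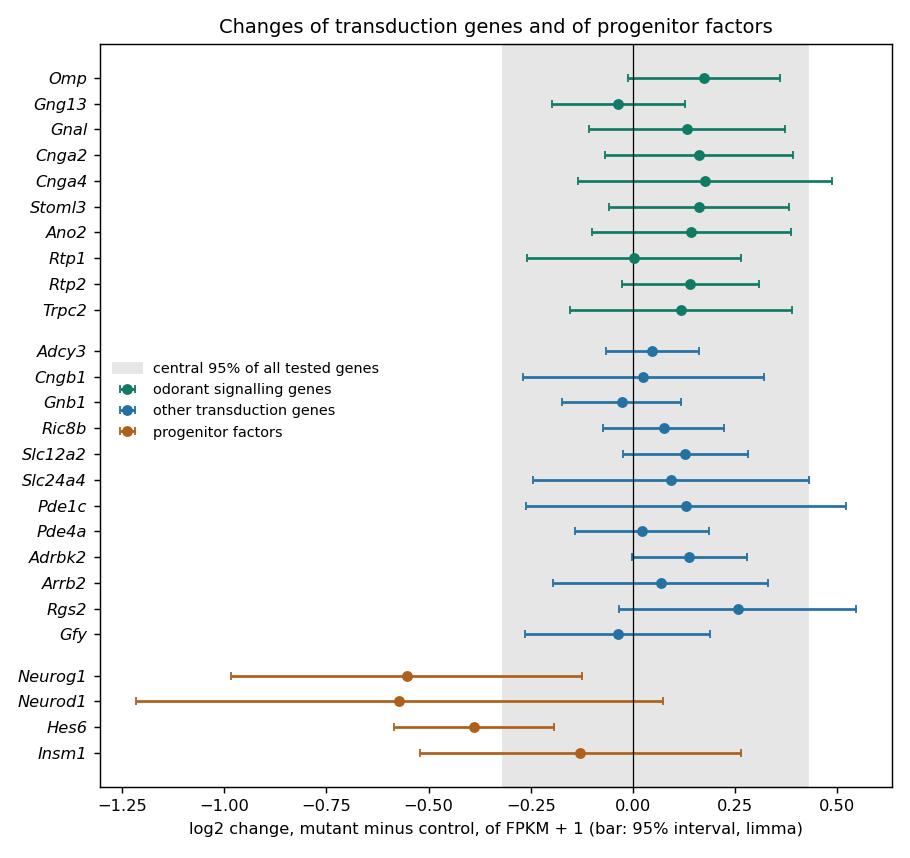
Log2 change (mutant minus control, of FPKM + 1) of the 10 odorant signalling genes (green), 12 other transduction genes (blue) and 4 progenitor factors (brown). Points are limma estimates, bars are 95% intervals, and the grey band spans the central 95% of all tested genes, from -0.32 to 0.43. The 10 green points lie between -0.04 and 0.18, inside the band, while 3 of the 4 brown points lie to its left.

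Within tissue the order of mean level of the 10 genes was largely, but not fully, shared among the libraries. Gng13 was highest, followed by Omp, Stoml3, Rtp1, Gnal, Rtp2, Cnga2, Ano2, Trpc2 and Cnga4, and the mean of Gng13 was 26 times that of Cnga4. Of the 9 neighbouring pairs in this order, 6 held in all 6 libraries. Rtp1 over Gnal and Ano2 over Trpc2 held in 5 of 6, and Trpc2 over Cnga4 in only 2 of 6, so these neighbours did not differ beyond their spread. The lowest 3 genes stood near the middle of all measured genes, Cnga4 lying above 54.5% of them.

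The 10 genes tended to be low in the same libraries. Control replicate 1 was the lowest of the 6 libraries for 8 of the 10 genes, Gng13 among them, and control replicate 3 for the other 2, Stoml3 and Trpc2. The highest library was mutant replicate 1 for 3 genes, mutant replicate 2 for 4, mutant replicate 3 for 1 and control replicate 2 for 2. The share of all tested genes that were lowest in control replicate 1 was not computed. Summed FPKM was also lowest in control replicate 1 for other transduction, other mature neuron, and supporting and gland cell genes. For identity factors and progenitor factors it was lowest in mutant replicate 2. Immature neuron genes differed by measure. Their summed FPKM was lowest in control replicate 1, at 233.8 FPKM against 235.1 FPKM in mutant replicate 2. Their mean log2(FPKM + 1) relative to the control mean was lowest in mutant replicate 2, at -0.16 against -0.092 in control replicate 1. Whether the pattern is particular to the 10 genes was not tested. The median deviation of the 10 genes from their own 6-library mean, on the log2 FPKM scale, was 0.081, 0.043 and 0.057 in mutant libraries and -0.22, 0.097 and -0.077 in control libraries. Control replicate 2 thus lay beside the mutants and above the other controls. Without control replicate 2 the median change rose to 0.23 and 5 of the 10 genes had an unadjusted limma p under 0.05, as had 9.87% of all tested genes in that fit, but 0 passed the adjusted threshold (smallest adjusted p 0.255). Without control replicate 1 the median change was 0.064 and no gene had an unadjusted p under 0.05.

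**Figure D3:**
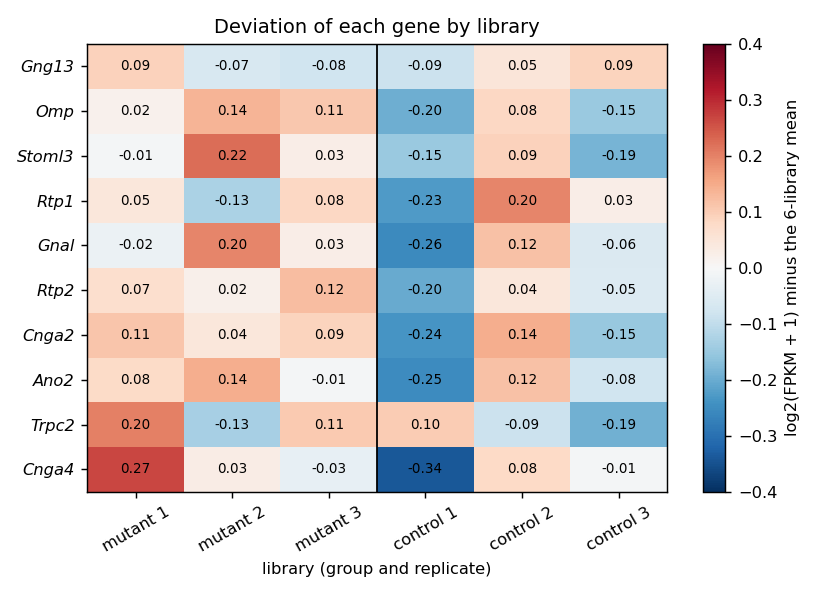
Deviation of log2(FPKM + 1) from the mean of the 6 libraries, for each gene (rows, ordered by level) and library (columns, mutants left of the line). Blue is below and red above the mean. The column of control replicate 1 is blue for 9 of the 10 genes, with Trpc2 as the exception.

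Ratios taken within a library set aside how much olfactory epithelium a dissection held, if the genes come from the same cells. Relative to Omp, Stoml3 was the most constant, at 0.514 to 0.580 in mutant libraries and 0.529 to 0.561 in control libraries. Gnal stood at 0.297 to 0.329 times Omp in mutant libraries and 0.300 to 0.334 times in control libraries. Cnga2, Rtp2 and Ano2 had ratios to Omp with coefficients of variation of 5.09%, 5.07% and 5.78% over the 6 libraries. The ratios of Rtp1 (10.4%), Gng13 (12.2%), Cnga4 (13.8%) and Trpc2 (16.6%) varied more. The ratio to Omp overlapped between mutant and control libraries for all 9 other genes.

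The genes whose profile over the 6 libraries lay nearest to the mean profile of the 10 were found by Euclidean distance between standardized log2 values. The largest possible distance is 4.47, and the median over all tested genes was 3.19. The nearest were Rpgr (0.10), which encodes a ciliary protein, Dcx (0.19), a microtubule protein of migrating and immature neurons, and Camk2d (0.31), a calcium-dependent kinase. Diexf, Zfp560, Adgrg6, Orc4, Plxna4, Kif21b and Spag16 followed, at 0.34 to 0.50. In all, 105 of the other 14756 tested genes (0.712%) lay within a distance of 1. Among the olfactory genes listed, Cyp2g1 of sustentacular cells (0.59), Adcy3 (0.62), Kirrel2 (0.69) and Umodl1 (0.94) were within that distance. Of the 10 genes themselves, Cnga2 lay nearest to their mean profile (0.47). Gng13 (2.57) and Trpc2 (3.11) lay farthest, though below the median of 3.19 over all tested genes. The mean profile includes each of the 10, which makes their own distances smaller.

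Other genes of the same pathway gave the same count. In a list of 12 further transduction genes, 0 passed the adjusted threshold in either direction by limma and 0 had an unadjusted p under 0.05. Changes were positive in 10 and negative in 2, with a median log2 change of 0.071. Adcy3, the cyclase of the pathway, was the steadiest, at 19.3, 19.3 and 18.9 FPKM in mutant libraries, against 17.96, 19.2 and 18.5 FPKM in control libraries. Its log2 change was 0.047 ± 0.048 (SE). Slc12a2, which loads the cell with chloride for the Ano2 current, averaged 30.7 ± 1.61 FPKM in mutant and 28.0 ± 1.89 FPKM in control libraries (SD, n = 3 each). Ric8b, a partner of the olfactory G protein, averaged 14.9 ± 0.433 FPKM in mutant and 14.1 ± 0.94 FPKM in control libraries. Adrbk2, the receptor kinase also named Grk3, was the exception to the overlap, with 11.5, 10.6 and 11.8 FPKM in mutant libraries, against 9.94, 10.3 and 10.2 FPKM in control libraries (limma adjusted p = 0.449). That is 1 of 12 genes, while 17% of all tested genes had groups that did not overlap. The largest change was that of Rgs2, a regulator of G protein signalling, at 0.26 ± 0.12 (SE), with a limma adjusted p of 0.488. Its sign turned negative with sex as a covariate.

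Odorant receptors themselves were present at low level. The files listed 1120 olfactory receptor symbols, of which 1087 were above 0 in at least 1 library and 55 reached a mean of 1 FPKM. Their summed FPKM was 374, 358 and 382 in mutant libraries, against 299, 406 and 356 in control libraries. The sum followed the same library order as the transduction genes at the low end, control replicate 1 being lowest, and the groups overlapped (exact permutation test of the means, two-sided p = 0.7, smallest possible 0.1). By limma 0 of the 55 tested receptors passed the adjusted threshold. The highest was a pseudogene, Olfr856-ps1, with means of 16.6 ± 1.26 FPKM in mutant and 17.3 ± 1.14 FPKM in control libraries (SD, n = 3 each). It was followed by Olfr1372-ps1, Olfr15, Olfr613 and Olfr578. Olfr1372-ps1 had 4.55, 2.65 and 4.30 FPKM in mutant libraries, all below the 6.0, 6.92 and 6.73 FPKM in control libraries, and Olfr15 had 5.87, 5.79 and 5.91 FPKM in mutant libraries, all above the 3.68, 4.45 and 5.26 FPKM in control libraries. Their limma adjusted p-values were 0.227 and 0.333. Olfr613 also lay higher in all mutants, at 2.37, 2.41 and 2.61 FPKM, against 1.82, 2.08 and 1.78 FPKM in control libraries (limma adjusted p = 0.378). The groups overlapped for Olfr856-ps1 and Olfr578. Of all tested genes, 17% had groups that did not overlap. The 325 vomeronasal receptor symbols summed to 19.2, 7.18 and 23.8 FPKM in mutant libraries, against 11.5, 20.95 and 12.2 FPKM in control libraries (exact permutation test, two-sided p = 0.9). Only Vmn2r29 and Vmn1r58 reached a mean of 1 FPKM, and Vmn1r89, the next, averaged 0.413 FPKM in mutant and 0.517 FPKM in control libraries. Mutant replicate 2 had 39 of these genes above 0, against 108 and 125 in the other mutants and 75 to 138 in controls. Gnao1, Gnai2 and Tfap2e, further genes of vomeronasal neurons, gave 0 calls among 3. Gnai2 averaged 175 FPKM in mutant and 184 FPKM in control libraries, and Gnao1 38.5 and 39.2 FPKM. Tfap2e averaged 1.79 and 1.37 FPKM, near the expression filter of 1 FPKM. How much of these values came from vomeronasal neurons was not tested.

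Earlier steps of the olfactory neuron lineage had other values. In the list of 4 progenitor factors all changes were negative, with a median log2 change of -0.47, and 0 passed the adjusted limma threshold. By unadjusted limma p, 2 of the 4 were under 0.05, Hes6 and Neurog1, against 11.3% of all tested genes. The same 2 had groups that did not overlap, against 17% of all tested genes. The log2 change was -0.55 ± 0.18 (SE) for Neurog1 and -0.57 ± 0.27 (SE) for Neurod1, with limma adjusted p-values of 0.335 and 0.488. The median change was -0.26 without mutant replicate 2, where that of Insm1 was 0.050, and -0.22 with sex as a covariate. Hes6, a helix-loop-helix factor of neuronal precursors, measured 62.9, 49.8 and 57.4 FPKM in mutant libraries, against 71.95, 75.4 and 75.4 FPKM in control libraries (log2 change -0.39 ± 0.083 SE, limma adjusted p = 0.176). Every mutant lay below every control, and mutant replicate 2 was the lowest. The same factors were set against Omp within each library. The ratio of Hes6 to Omp was 0.735, 0.534 and 0.629 in mutant libraries and 0.9746, 0.840 and 0.989 in control libraries. The ratios of Neurog1, Neurod1, Hes6 and Insm1 to Omp were each lower in all 3 mutants than in all 3 controls. Each gave an exact permutation p of 0.1 (two-sided, 0.1 when adjusted over the 4 ratios), the smallest that 3 against 3 can give, so the threshold of 0.05 could not be reached. Omp itself had a log2 change of 0.17, which lowers any ratio to it in mutants. In FPKM alone the groups overlapped for Neurod1 and Insm1. The share of all tested genes whose ratio to Omp did not overlap was not computed. On the log2 scale the mean ratio differed by -0.83 for Neurod1 and -0.31 for Insm1, and without mutant replicate 2 by -0.40 and -0.098. With Gng13 in place of Omp, chosen after seeing the data, the exact permutation test gave p = 0.2 for Neurod1 and 0.8 for Insm1, and 0.1 for Neurog1 and Hes6. The lower progenitor FPKM relative to Omp is therefore a description of these 6 libraries.

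Genes of immature neurons and factors of olfactory neuron identity were also measured. Gap43, a growth cone protein of immature neurons, averaged 101 ± 6.97 FPKM in mutant and 94.6 ± 11.4 FPKM in control libraries (SD, n = 3 each). Gng8, the gamma subunit that immature olfactory neurons use before Gng13, averaged 24.1 ± 2.28 FPKM in mutant and 27.0 ± 2.11 FPKM in control libraries. Gng13 stood at 5.32 to 5.85 times Gng8 in mutant libraries and at 4.72 to 5.57 times in control libraries, and these ranges overlapped. By limma 0 of 6 immature neuron genes passed the adjusted threshold, with 1, Ablim1, at an unadjusted p under 0.05 (11.3% of all tested genes). Among 7 identity factors 0 passed in either direction, by adjusted or unadjusted p. Lhx2, a homeodomain factor needed for receptor expression, measured 43.4, 26.2 and 44.5 FPKM in mutant libraries, all below the 46.5, 52.0 and 49.8 FPKM in control libraries (log2 change -0.41 ± 0.19 SE, limma adjusted p = 0.474). Without mutant replicate 2 the log2 change of Lhx2 was -0.16. Lhx2 was the 1 of the 7 identity factors whose groups did not overlap, against 17% of all tested genes. Of 7 other genes of mature neurons, 0 passed, and S100a5, whose level in mature neurons depends on activity, measured 29.96, 47.1 and 35.0 FPKM in mutant libraries, against 25.8, 38.4 and 30.6 FPKM in control libraries.

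**Figure D4:**
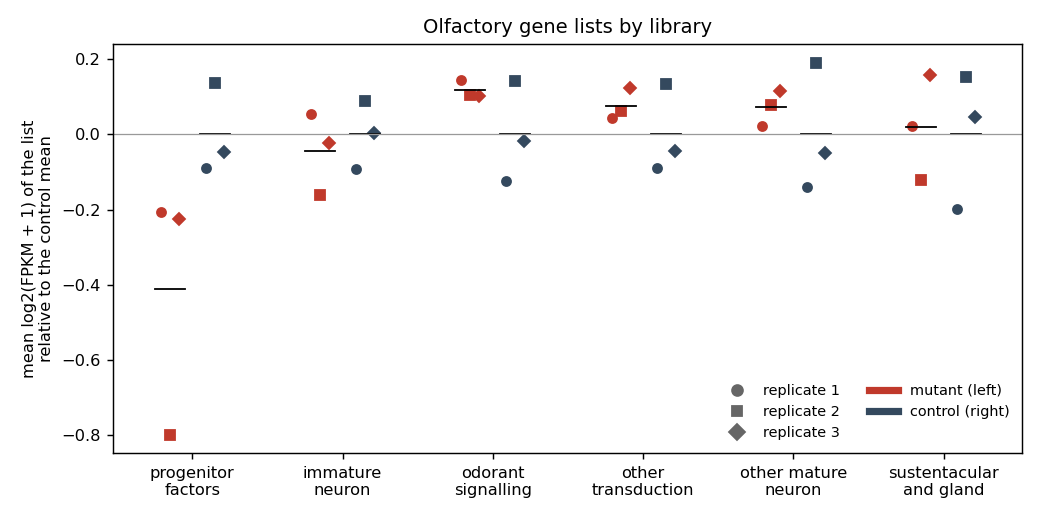
Mean log2(FPKM + 1) of 6 olfactory gene lists in each library, relative to the control mean of the list. Mutants are red on the left, controls dark blue on the right, symbols mark replicates and black lines group means. The mutant progenitor values (-0.21, -0.80 and -0.23) lie below all controls, while the mutant values for odorant signalling genes (0.14, 0.11 and 0.10) overlap the control values (-0.12, 0.14 and -0.018).

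Markers of other tissues gave the following values in the same libraries. Of 6 skin and oral epithelium genes 0 passed the adjusted limma threshold (smallest adjusted p = 0.136). All 6 had positive changes and groups that did not overlap, as had 17% of all tested genes in either direction, and their summed FPKM was 1667 to 1772 in mutant and 594 to 1464 in control libraries. The 5 cartilage matrix genes all passed the adjusted limma threshold, lower in mutant, with sums of 251 to 476 FPKM in mutant and 1081 to 1318 FPKM in control libraries. The part of such differences in the share of olfactory tissue in each library was not tested. Among glial markers S100b, which cartilage also expresses, was lower in mutant (limma adjusted p = 0.00664), while Sox10, a factor of glia and of crest cells, averaged 16.2 FPKM in mutant and 16.1 FPKM in control libraries. The respiratory cilia list gave 0 calls among 6 genes, and the list of 10 neuronal genes gave 0 among the 9 tested.

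Promoter stretches are shown for the genes whose windows hold the core letters of the Ebf motif, since Ebf proteins were first found through a site in promoters of this gene group and since Ebf1, Ebf2, Ebf3 and Ebf4 were all expressed here. Their mean levels were 23.0, 30.4, 39.2 and 33.3 FPKM in mutant libraries and 24.0, 35.0, 42.7 and 31.1 FPKM in control libraries, and none of the 4 passed the threshold. RefSeq windows (GRCm38.p6) from 250 bases before to 50 bases after a start site were on hand for 7 of the 10 genes, in 10 windows. Omp and Rtp1 had none, and Gnal is not shown. The motif core CCCNNGGG reads the same on both strands. With T before it and A after it, as in the longer site, it was in 0 of the 10 windows and in 0.904% of all 32851 windows. The core alone, which contains every match of the longer form, was searched after that. It was in 5 of the 10 windows, those of 5 of the 7 genes, against 13.7% of all windows and 15.4% of all genes. A match is a run of letters, not a shown binding site. Each stretch below reads 5′ to 3′ on the strand of the gene, with the core in capitals, or 2 overlapping copies of it in Gng13.
Gng13, 95 bases before the start, chr17:25717067-25717095, plus strand: gcatgtcccaCCCCAGGGGagacctgcca
Cnga2, 66 bases before the start, chrX:71991773-71991800, plus strand: aagggagagtCCCTTGGGgagcttggga
Ano2, 67 bases before an internal start, chr6:125711111-125711138, plus strand: aagggaacacCCCGAGGGatggaggcag
Rtp2, 202 bases before an internal start, chr16:23930979-23931006, minus strand: cctccgtcagCCCATGGGttggatctca
Cnga4, at base 25 after the start, chr7:105404582-105404609, plus strand: gcagctggagCCCCAGGGcagcttcttc
The distance counts from the first capital base to the start site of the RefSeq window, which lies after the first 250 bases of it. For Ano2 and Rtp2 that start lies inside the gene as GENCODE M21 bounds it. Stoml3 and Trpc2 had no match in their windows.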

How the data were processed

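The authors deposited FPKM values, 1 per gene symbol and library, per the file headers. The submitters' processing notes name Cuffdiff 2.2.1, TopHat2 2.1.1, Bowtie2 2.2.8, SAMtools 0.1.18 and build mm10. Per the labels' protocols, TRIzol RNA went into a stranded library kit. For annotation, filters, scaling and strand setting, nothing is given in the sources used here.

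From these, log2(FPKM + 1) was computed, unscaled, where the mean over libraries reached 1 FPKM (14766 genes). The groups were compared in R 4.3.3 by limma 3.58.1 (eBayes with trend, two-sided, no covariate, 4 residual degrees of freedom). Benjamini-Hochberg adjustment covered every tested gene, at a threshold of 0.05. The fit was tested on simulated data. Depth was estimated from ratios of values under 0.15 FPKM and the lengths of 135 genes (quartiles 11900000 and 13200000 fragments in control replicate 1). Positions are from GENCODE M21 (GRCm38, which shares mm10 coordinates). The 10 genes and the lists were chosen with earlier results of these data known; 1 gene of the progenitor list is not reported here, and the list's values are without it. Named outside the 10 are genes of the olfactory lists, at most 2 per other list by smallest p, the 10 nearest profiles and the highest receptors. Cbr2, Cyp2a5, Ugt2a1, Ermn, Sox10, Neurog1, Neurod1, Insm1, the bulb markers and genes that overlap the 10 were named beside this rule. Alternatives were other pseudocounts, filters and scalings, eBayes options, library weights, sex as a covariate and leaving out each library. Female libraries alone, Gng13 as the denominator, the test of ratios among neuron genes and the core motif were added after seeing the data.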

Additional observations from a re-analysis of the deposited data

How the results depend on the processing

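The counts of odorant signalling genes and of other transduction genes past the threshold were 0 under all 17 alternatives, and the smallest limma adjusted p of the 10 genes over them was 0.255. The number of the 10 with a negative change was 0 with library weights, with sex as a covariate and in female libraries only, and 0 to 2 when each library was left out. The count over all genes was 18 with no filter, 19 without trend, 71 with library weights, 10 with sex as a covariate and 15 to 44 when each library was left out. Log2 changes that turned sign were those of Gng13 (0.0085 with library weights, 0.076 with sex as a covariate and in female libraries only, -0.091 to 0.00070 leaving out each library) and Gfy (0.015 with library weights, 0.048 with sex or in females, -0.10 to 0.073 leaving out each library). With sex as a covariate or in females they also included Slc24a4 (-0.061), Pde1c (-0.038), Rgs2 (-0.046) and S100a5 (-0.055). Leaving out each library gave -0.11 to 0.10 for Rtp1, -0.025 to 0.16 for Arrb2, -0.10 to 0.12 for Cngb1, -0.039 to 0.085 for Pde4a, -0.086 to 0.020 for Gnb1, -0.017 to 0.22 for Slc24a4 and -0.25 to 0.050 for Insm1. The difference in summed olfactory receptors (17.7 FPKM) ran from -9.71 to 44.0 FPKM, and that of vomeronasal receptors (1.86 FPKM) from -1.68 to 6.64 FPKM. The cause of these shifts was not tested. Sex as a covariate and female libraries only both rest on 1 female mutant. They gave the same log2 changes for the 10 genes, so they are not separate checks of direction. No paired analysis was possible because the labels carry no replicate numbers that pair libraries. Low values are least precise in mutant replicate 3, the library of least depth.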
